A study of Mus musculus with 3 samples.

Results

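The chemokine gene family was followed in 3 lines of OP9 cells, a mouse stromal line grown from newborn calvaria and widely used as a feeder layer for developing blood cells. Its members were all probes whose gene symbol in the platform annotation is Ccl or Cxcl followed by a number, Cx3cl1, Xcl1 or Pf4. This rule uses no measured value, but the members were chosen with earlier results of these data known. It found 31 probes for 30 genes, of 16390 genes named on the array. The lines were OP9-DL, which expresses green fluorescent protein (GFP) and Delta-like 1, OP9-GFP, which expresses GFP alone, and the parental OP9 line, labelled as the control. All 3 come from a B6C3Fe-a/a-Csf1op/Csf1op mouse, so each carries the Csf1op mutation, which removes functional macrophage colony-stimulating factor, and none was treated. The promoters that drive GFP and Delta-like 1, and whether a line is a single clone, were not given in the sources used here. RNA of each line was hybridised to 1 one-colour array, so the differences below have no replicate check, no error and no test.

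Chemokines are small secreted proteins that steer migrating cells by binding receptors of the G protein-coupled family. They are grouped by the spacing of their first cysteines into CC, CXC, CX3C and XC types. Inflammatory chemokines are switched on by cytokines and microbial products through NF-kB and interferon signalling, while constitutive ones such as Cxcl12 hold blood progenitors in the bone marrow. Stromal cells display many of them on heparan sulphate chains, where blood cells that touch the stroma can meet them.

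The values are the authors' scaled linear intensities, in which the median probe of each array reads 20. Of the 30 chemokine genes 25 had a value on all 3 arrays and 5 were blank on at least 1. A gene was compared where its mean log2 intensity reached the 25th percentile of all probes measured on every array, an intensity of 6.13. This left 16 chemokine genes, 64.0% of those measured, against 77.2% of all measured genes. Since the limit uses the mean of the lines, a gene can pass through 1 high line, and the counts below are over the genes that passed. A gene was counted as higher or lower at 2-fold or more between arrays.

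As a check of the labels, Dll1, which encodes Delta-like 1, read 333.3 in OP9-DL, 20.5 in OP9-GFP and 14.0 in OP9. Of 12 stromal markers 9 were bright enough to compare, with Vim, Fn1 and Col1a2 far above the limit on each array, and Thy1, Eng and Dcn below it. The blood cell marker Ptprc lay between 2.1 and 2.8 on the arrays, below the limit. Of 11 blood markers on the array 6 could be compared, and only Cd48 passed 2-fold between OP9-DL and OP9-GFP; of 7 mast cell markers 3 could be compared, and only Tpsab1 did. Kit, another of the mast cell markers, was blank in OP9-DL and OP9-GFP and read 1.6 in OP9. Other markers were detected: the compared blood markers Cd68, Laptm5, Csf1r, Tyrobp and Fcer1g were above the limit on each array. Of these, Cd68 read highest, at 46.3 in OP9-DL, 42.9 in OP9-GFP and 29.4 in OP9. The mast cell markers Mcpt4 and Cpa3 read 19.8, 17.8 and 19.1, and 6.7, 8.1 and 4.9, on the same arrays. The summed intensity of the blood markers was 253.7 in OP9-DL, 133.9 in OP9-GFP and 114.2 in OP9, and that of the mast cell markers was 851.5, 38.9 and 53.2. A single gene made most of each difference, since Cd48 read 114.4 in OP9-DL, 3.0 in OP9-GFP and 2.1 in OP9, and Tpsab1 read 818.9, 9.0 and 20.6. Their part in the chemokine differences was not tested.

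**Figure D1:**
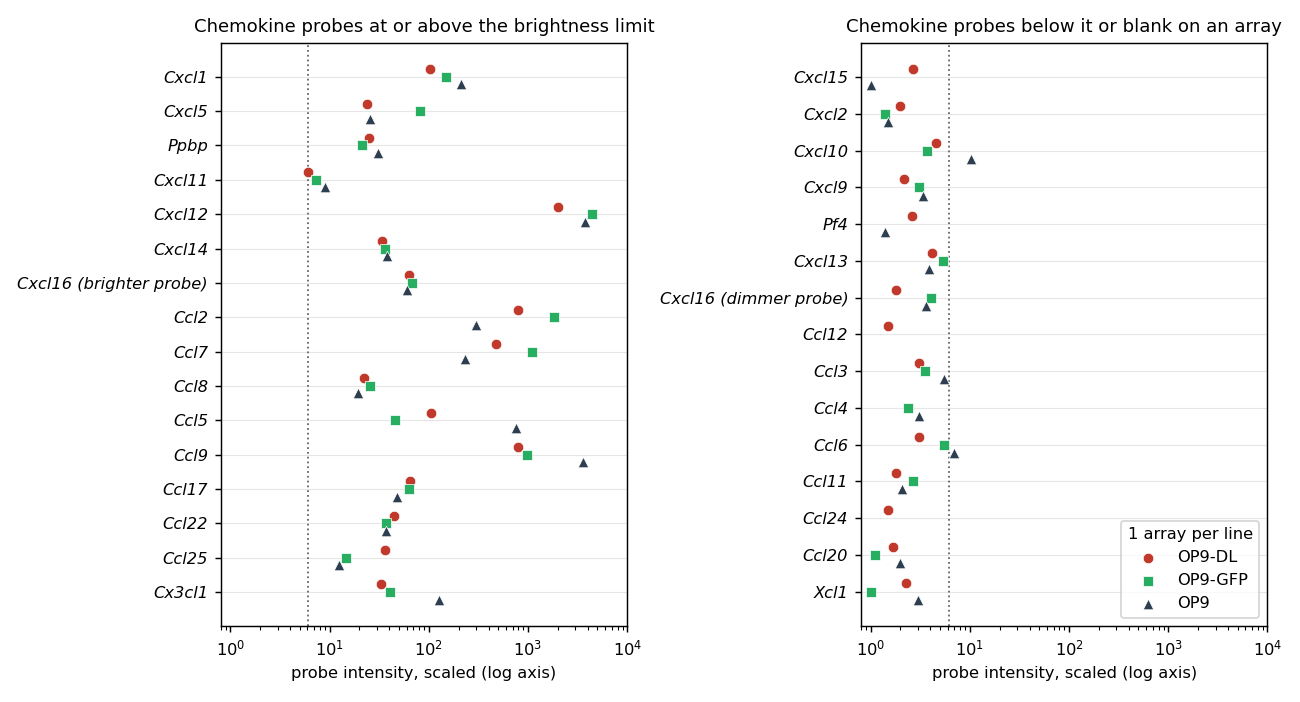
Scaled intensity (log axis) of each of the 31 chemokine probes in OP9-DL, OP9-GFP and OP9, 1 point per array, with the brightness limit of 6.13 as a dotted line. Ccl2, Ccl7 and Cxcl5 have their highest point in OP9-GFP, Ccl5, Ccl9 and Cx3cl1 in OP9, and Ccl25 in OP9-DL.

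The first comparison set cells with Delta-like 1 against cells with GFP alone, the pair that by its labels differs in the ligand. Lower in OP9-DL were 4 chemokine genes, the monocyte attractants Ccl2 and Ccl7, the neutrophil attractant Cxcl5, and Cxcl12, which retains blood progenitors in marrow. Higher in OP9-DL were Ccl5, an attractant of T cells, and Ccl25, an attractant of thymus-seeding progenitors. Thus 2 of 16 compared genes were higher, against 2.26% of all 11346 genes compared, and 4 were lower, against 3.08%. In either direction these are 6 of 16, or 37.5%, against 5.33% of all genes. The median log2 difference of the 16 genes was -0.28, with 5 above and 11 below 0, and that of all genes was -0.03. No test stands behind these shares, and in such bulk RNA fewer cells that express a gene and less RNA per cell cannot be told apart.

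The second comparison set cells with GFP against parental cells, which differ without Delta-like 1. Ccl2, Ccl7 and Cxcl5 were higher in OP9-GFP, so the same 3 genes read higher with GFP alone than with either GFP and Delta-like 1 or neither. Ccl5, Ccl9 and Cx3cl1 were lower. The 3 higher genes of 16 stand beside 5.05% of all genes, and the 3 lower ones beside 6.81%. In either direction they are 6 of 16, against 11.9% of all genes. The median of the 16 log2 differences was 0.08, with 8 above and 8 below 0, against 0.02 over all genes.

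The third comparison set cells with Delta-like 1 against parental cells. Ccl2, Ccl7 and Ccl25 were higher in OP9-DL, and Ccl5, Ccl9, Cx3cl1 and Cxcl1 were lower. Cxcl1 did not pass under quantile scaling, at a log2 difference of -0.95, which left 3 lower genes, beside 6.54% of all genes. As deposited these are 3 of 16 beside 4.42% of all genes, and 4 of 16 beside 7.29%. In either direction they are 7 of 16, against 11.7%. The median log2 difference was -0.23, with 6 above and 10 below 0, against 0.00 over all genes. The comparisons share arrays, so a reading on 1 array enters a pair of them.

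**Figure D2:**
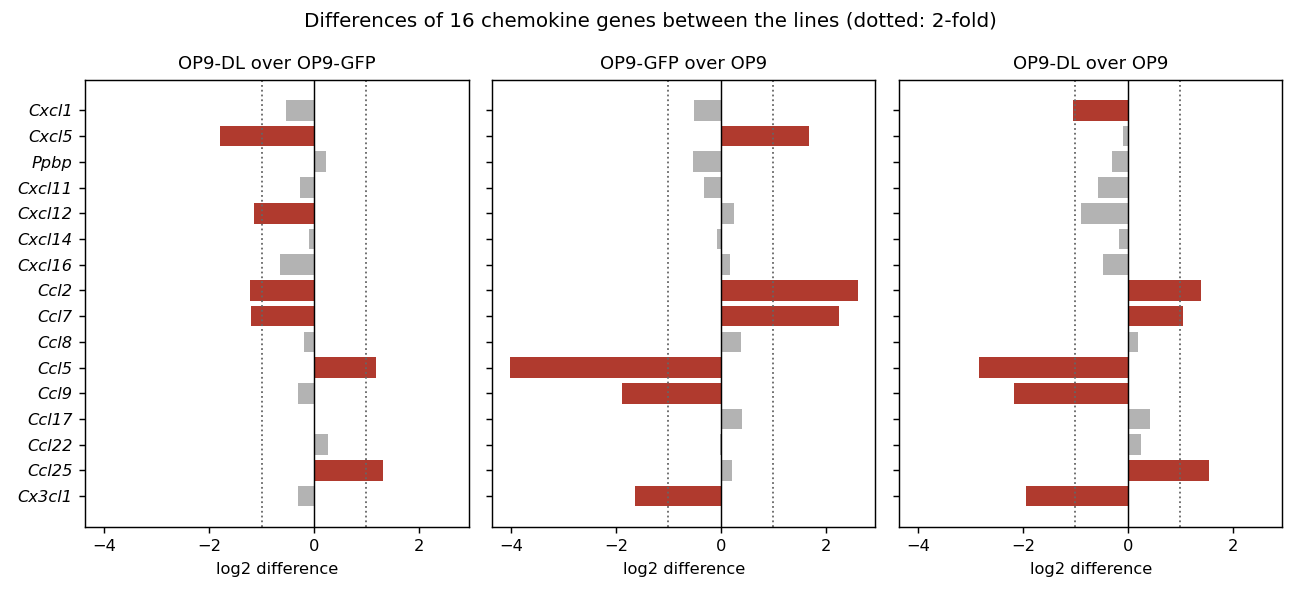
Log2 difference of each of the 16 compared chemokine genes for OP9-DL over OP9-GFP, OP9-GFP over OP9 and OP9-DL over OP9; bars in red pass 2-fold (dotted lines) and grey bars do not. The longest bar is Ccl5 in OP9-GFP over OP9, at -4.03.

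**Figure D3:**
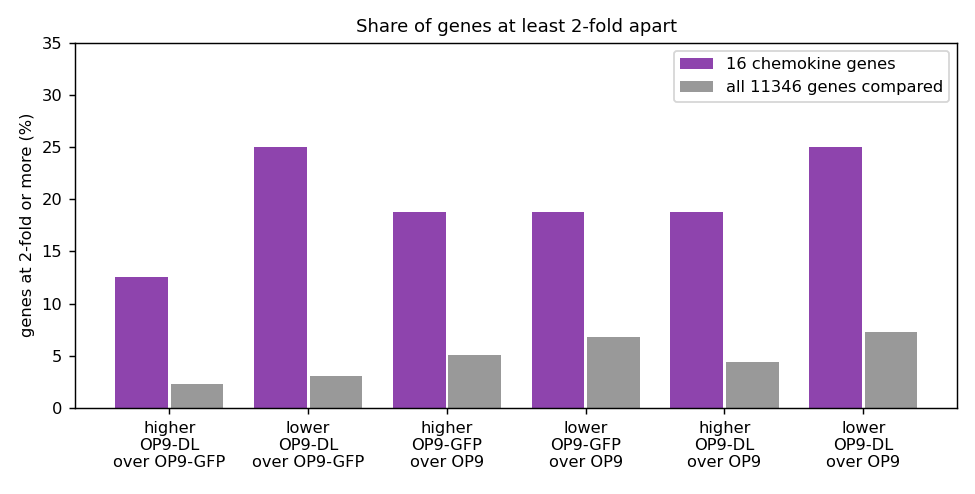
Percent of the 16 chemokine genes and of all 11346 compared genes that were at least 2-fold higher or lower in each comparison; the axis starts at 0. The chemokine bars run from 12.5% to 25% and stand on 2 to 4 genes each.

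The CC chemokines listed here as the monocyte attractant group held 2 of the genes that set OP9-GFP apart. Ccl2 read 789.3 in OP9-DL, 1831.2 in OP9-GFP and 298.6 in OP9. It was thus 2.32-fold lower in OP9-DL than in OP9-GFP, yet 2.64-fold higher than in OP9, and 6.13-fold higher in OP9-GFP than in OP9. Ccl7, a close relative that also draws monocytes, read 476.7, 1100.8 and 230.0 in OP9-DL, OP9-GFP and OP9. Its order of the lines was that of Ccl2, with OP9-DL 2.31-fold below OP9-GFP and 2.07-fold above OP9, and OP9-GFP 4.79-fold above OP9. Ccl2 and Ccl7 were the 2 of 16 genes in which OP9 stood 2-fold or more below both other lines, against 2.31% of all genes.

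The other genes of that group did not pass 2-fold or could not be compared. Ccl8 read 22.2 in OP9-DL, 25.4 in OP9-GFP and 19.4 in OP9, in the order of Ccl2 and Ccl7 but within 2-fold throughout. Ccl12 had a value, 1.5, in OP9-DL alone. In the mouse gene table Ccl2, Ccl7, Ccl11, Ccl12 and Ccl8 follow each other on chromosome 11 with no other protein-coding gene between them. Ccl2 and Ccl7 are next to each other at 1 end of that row, and Ccl11, the eotaxin that draws eosinophils, was below the limit at 1.8, 2.7 and 2.1 in OP9-DL, OP9-GFP and OP9. The probe sequences were not used here, so how far the Ccl2 and Ccl7 probes could read each other's RNA was not tested.

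Of the 5 CC chemokines Ccl3, Ccl4, Ccl5, Ccl6 and Ccl9, Ccl5 and Ccl9 were bright enough to compare, and both read highest in the parental line. Ccl5, which attracts T cells and other leukocytes, read 105.1 in OP9-DL, 46.0 in OP9-GFP and 749.6 in OP9. It was 7.13-fold lower in OP9-DL and 16.3-fold lower in OP9-GFP than in OP9, and 2.28-fold higher in OP9-DL than in OP9-GFP. It was the 1 of 16 genes in which OP9-GFP stood 2-fold or more below both other lines, against 0.899% of all genes. No other chemokine gene compared had all 3 lines 2-fold or more apart except Ccl2 and Ccl7. Ccl9, a CCR1 ligand that draws osteoclast precursors in mice, read 800.0, 984.6 and 3623.6 in OP9-DL, OP9-GFP and OP9. It was 4.53-fold lower in OP9-DL and 3.68-fold lower in OP9-GFP than in OP9, while the lines with GFP differed by 1.23-fold.

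The next genes along chromosome 11 after Ccl5 and Ccl9, with no other coding gene between, are Ccl6, Ccl3 and Ccl4, and none of them was bright enough to compare. Ccl6, a relative of Ccl9, read 3.1 in OP9-DL, 5.5 in OP9-GFP and 7.0 in OP9. Ccl3, a macrophage inflammatory protein, read 3.1, 3.5 and 5.5 on the same arrays. Ccl4, its close relative, read 2.4 in OP9-GFP and 3.1 in OP9 and was blank in OP9-DL. The order of the lines in Ccl6 and Ccl3 puts OP9 highest, but at such readings a ratio is not firm: the log2 difference of Ccl6 in OP9-DL over OP9 was -1.18, and -0.57 where a constant of 5 was first added to each intensity.

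Of the compared CC chemokines with more selective receptors, Ccl25 alone passed 2-fold. Ccl25, the CCR9 ligand known from thymus and small intestine, read 36.6 in OP9-DL, 14.6 in OP9-GFP and 12.6 in OP9. It was 2.51-fold above OP9-GFP and 2.90-fold above OP9, and so the 1 gene of 16 in which OP9-DL stood 2-fold or more above both other lines, against 1.00% of all genes. Ccl17 read 64.5, 63.7 and 48.4 and Ccl22 read 44.5, 36.8 and 37.3 in OP9-DL, OP9-GFP and OP9. Both are CCR4 ligands that attract helper T cells, and both stayed within 2-fold. Between them on chromosome 8 lies Cx3cl1, with no other coding gene, and its readings differed between the lines. Ccl20, a CCR6 ligand, read 1.7, 1.1 and 2.0, and Ccl24, an eotaxin, had only 1.5 in OP9-DL.

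Cx3cl1, fractalkine, is tethered to the membrane by a mucin stalk and can hold cells with the receptor Cx3cr1. It read 33.0 in OP9-DL, 41.0 in OP9-GFP and 127.1 in OP9. The lines with GFP lay 3.85-fold (OP9-DL) and 3.10-fold (OP9-GFP) below OP9 and close to each other. Ccl5, Ccl9 and Cx3cl1 were the 3 of 16 genes in which OP9 stood 2-fold or more above both other lines, against 4.01% of all genes. Xcl1, lymphotactin, was near the lowest readings of the arrays, at 2.3, 1.0 and 3.0 in OP9-DL, OP9-GFP and OP9.

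The CXC chemokines with an ELR motif, which draw neutrophils through CXCR2, had 3 of 5 members bright enough to compare, and Cxcl5 alone of them passed 2-fold between OP9-DL and OP9-GFP. Cxcl5 read 23.7 in OP9-DL, 81.8 in OP9-GFP and 25.4 in OP9. It was 3.45-fold lower in OP9-DL than in OP9-GFP and 3.22-fold higher in OP9-GFP than in OP9, and OP9-DL and OP9 lay within 1.07-fold. With Ccl2 and Ccl7 it made up the 3 of 16 genes in which OP9-GFP stood 2-fold or more above both other lines, against 0.873% of all genes. Cxcl1, the keratinocyte-derived neutrophil attractant, read 102.3, 148.3 and 212.6 in OP9-DL, OP9-GFP and OP9. It was 2.08-fold lower in OP9-DL than in OP9, close to the threshold, and within 2-fold otherwise. Ppbp, named Cxcl7 on the array and known from platelets, read 25.1, 21.5 and 30.9. Cxcl2 read 2.0, 1.4 and 1.5, and Cxcl15 read 2.7 in OP9-DL and 1.0 in OP9 and was blank in OP9-GFP. Cxcl5, Ppbp, Pf4, Cxcl15, Cxcl1 and Cxcl2 lie in 1 row on chromosome 5, in which only Cxcl3 comes between them.

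Cxcl12, the CXCR4 ligand that keeps haematopoietic progenitors in place, read 1997.4 in OP9-DL, 4411.3 in OP9-GFP and 3720.4 in OP9. It was 2.21-fold lower in OP9-DL than in OP9-GFP and 1.86-fold lower than in OP9, which is just short of 2-fold. None of the 16 genes was therefore 2-fold or more below both other lines in OP9-DL, against 1.71% of all genes. With a threshold of 1.5-fold Cxcl12 was the 1 of 16 genes counted there, near the 4.42% of all genes at that threshold. Cxcl14, which attracts monocytes and immature dendritic cells, read 33.8, 36.1 and 37.8 and stayed within 1.12-fold between any of the lines. Cxcl13, the attractant of B cells to follicles, read 4.2, 5.4 and 3.9, below the limit.

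Cxcl16, a membrane-bound ligand of CXCR6, had the only pair of probes in the family, and they did not read alike. The brighter probe read 63.0 in OP9-DL, 67.8 in OP9-GFP and 60.5 in OP9, within 2-fold of each other. The dimmer probe read 1.8, 4.1 and 3.6, below the limit, with OP9-DL 2.28-fold below OP9-GFP. The gene's log2 difference of OP9-DL over OP9-GFP, as the mean of both probes, was -0.65, and by the brighter probe alone -0.11.

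The CXCR3 ligands Cxcl9, Cxcl10 and Cxcl11, which interferon gamma is known to induce and which draw activated T cells, read 10.2 at most. Cxcl10 read 4.6 in OP9-DL, 3.7 in OP9-GFP and 10.2 in OP9, so the highest reading was in OP9, although the gene fell short of the limit. Its log2 difference of OP9-GFP over OP9 was -1.46, and -0.81 with the constant of 5. Cxcl11 read 6.1, 7.3 and 9.1 and Cxcl9 read 2.2, 3.1 and 3.4 in OP9-DL, OP9-GFP and OP9. Pf4, platelet factor 4, a chemokine of platelet granules named Cxcl4 on the array, read 2.6 in OP9-DL and 1.4 in OP9 and was blank in OP9-GFP. Of these 4 genes, Cxcl11 alone was compared, and it stayed within 2-fold.

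The receptors were mostly at the bottom of the range, as the plot of receptor intensities shows. Of 23 genes on the receptor list 21 were found by name in the files used here, 16 had a value on all 3 arrays and 7 were bright enough to compare. Ackr3, an atypical receptor that binds Cxcl12 and Cxcl11 and removes them from the surroundings, read 56.4 in OP9-DL, 253.8 in OP9-GFP and 665.9 in OP9. It was 4.50-fold lower in OP9-DL than in OP9-GFP, 2.62-fold lower in OP9-GFP than in OP9, and 11.8-fold lower in OP9-DL than in OP9. Ackr3 was the 1 of 7 compared receptors past 2-fold in each comparison, beside 5.33% of all genes in OP9-DL over OP9-GFP, 11.9% in OP9-GFP over OP9 and 11.7% in OP9-DL over OP9, so the receptors lay near the share of all genes in the comparisons with OP9. Thus in OP9-DL the readings of both Cxcl12 and this receptor were the lowest of the 3 lines.

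The other receptors compared stayed within 2-fold. Cxcr4, the signalling receptor of Cxcl12, read 10.3 in OP9-DL, 15.0 in OP9-GFP and 11.8 in OP9. Ackr4, which scavenges Ccl25 and the CCR7 ligands, read 105.8, 110.1 and 128.9, and Ackr2, a scavenger of inflammatory CC chemokines, read 9.4, 12.2 and 8.2. Ccr9, the receptor of Ccl25, read 7.4, 6.6 and 8.5, and Cxcr5, the receptor of Cxcl13, 7.0, 9.8 and 8.7. The probe named Ccr4 read 5397.2, 3768.1 and 4998.5, but in the gene table the same name is also an older synonym of Noct, a circadian deadenylase, so which gene it reads is uncertain.

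Ccr1, Ccr2, Ccr3, Cxcr2 and Cx3cr1, which bind inflammatory chemokines, were below the limit or blank. Ccr2, the receptor of Ccl2 and Ccl7, read 1.3 in OP9-GFP and 1.3 in OP9 and was blank in OP9-DL. Ccr1 read 3.2, 2.0 and 1.1, Ccr3 read 3.6, 3.9 and 5.0, Cxcr2 read 1.9, 2.1 and 2.7, and Cx3cr1 read 6.1, 6.1 and 3.6 in OP9-DL, OP9-GFP and OP9. The others below the limit, Ccr6, Ccr8, Ccr10, Cxcr3 and Cxcr6, ran from 1.0 to 7.0 on any array. Ccr7, Cxcr1 and Xcr1 had a value on 1 array each, and Ackr1 on none.

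**Figure D4:**
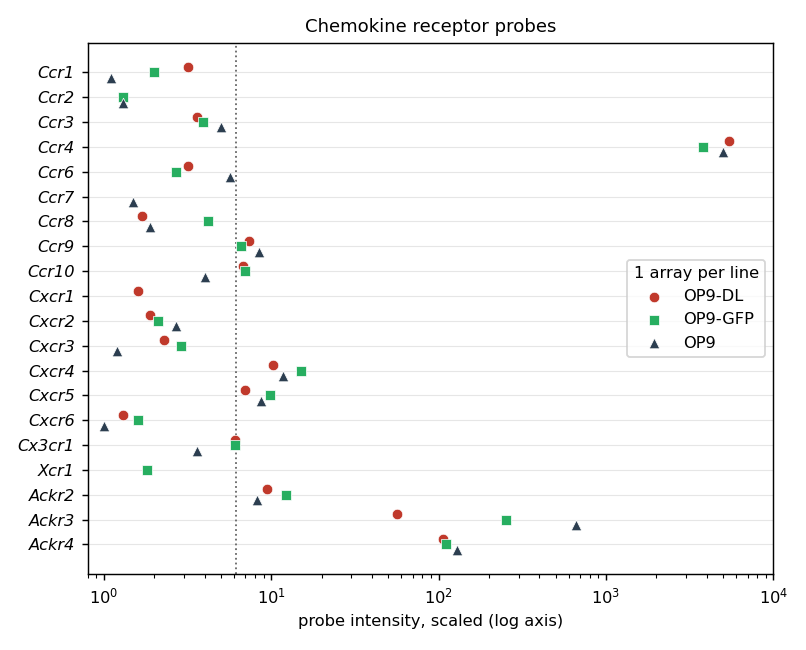
Scaled intensity (log axis) of the chemokine receptor probes with a value, in OP9-DL, OP9-GFP and OP9, 1 point per array, with the brightness limit of 6.13 as a dotted line. Ackr3 reads 56.4 in OP9-DL, 253.8 in OP9-GFP and 665.9 in OP9, and the other compared receptors keep within 2-fold.

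Genes of the pathways that are known to drive inflammatory chemokines were read beside the family. Among 22 compared genes of the NF-kB machinery, 1 was higher and 1 lower in OP9-DL than in OP9-GFP, beside 2.26% and 3.08% of all genes, with a median log2 difference of -0.04, against -0.03 over all genes. Tlr2, a receptor for bacterial lipoproteins, read 47.0, 18.2 and 20.7 in OP9-DL, OP9-GFP and OP9, and Nfkbiz, an inducible NF-kB cofactor, read 26.6, 59.5 and 112.1. Between OP9-GFP and OP9 the 1 gene past 2-fold was Relb, beside 11.9% of all genes in either direction. Relb, a subunit of the alternative pathway, read 20.6, 24.7 and 51.8 in OP9-DL, OP9-GFP and OP9. Nfkbia, the inhibitor that NF-kB itself induces, read 449.4, 450.0 and 309.1. In all, 20 of the 22 genes lay within 2-fold between OP9-DL and OP9-GFP, and 21 between OP9-GFP and OP9. Between OP9-DL and OP9 it was 17, with 2 higher, Tlr2 and Ikbkg, beside 4.42% of all genes, and 3 lower, Nfkbiz, Relb and Nfkbie, beside 7.29%, and the median log2 difference was -0.28, against 0.00 over all genes.

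Of 19 compared genes that NF-kB is known to induce, chemokines left out, 0 were higher and 6 lower in OP9-DL than in OP9-GFP, beside 2.26% and 3.08% of all genes. Their median log2 difference was -0.38, against -0.03 over all genes. Il6, a cytokine of inflammation, read 13.7 in OP9-DL, 174.7 in OP9-GFP and 88.0 in OP9. Il1rn, the interleukin-1 receptor antagonist, read 13.6, 166.0 and 85.6, and Birc3, an inhibitor of cell death, 5.0, 18.9 and 25.5. For Il6 and Il1rn the OP9-GFP array read highest, as for Ccl2, Ccl7 and Cxcl5, but unlike in Cxcl5 the OP9-DL reading was 2-fold or more below OP9 as well. Between OP9-GFP and OP9, 2 of the 19 genes were higher and 2 lower, beside 5.05% and 6.81% of all genes. Between OP9-DL and OP9, 1 was higher and 6 lower, beside 4.42% and 7.29%, with a median log2 difference of -0.21. Ptgs2, which makes prostaglandins, read 38.4, 88.7 and 13.9 in OP9-DL, OP9-GFP and OP9, in the order of Ccl2 and Ccl7, and Ier3 read 569.4, 954.0 and 356.8. Mmp13, a collagenase, read 2.9, 6.9 and 39.8, and Tnfsf11, the osteoclast factor RANKL, 22.4, 66.7 and 332.9. Of the 6 genes lower in OP9-DL than in OP9-GFP, Birc3 and Mmp13 read below the brightness limit in OP9-DL. Their folds with OP9-DL are therefore not firm, and Mmp13 was close to the limit in OP9-GFP too. Il6, Il1rn, Ptgs2 and Tnfsf11, the others of the 6, were above the limit on each array.

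Of 15 compared interferon transcription factors and receptors, 0 were higher and 4 lower in OP9-GFP than in OP9, beside 5.05% and 6.81% of all genes. Their median log2 difference was -0.58, against 0.02 over all genes. Irf7, which amplifies the interferon response, read 31.6 in OP9-DL, 14.2 in OP9-GFP and 424.4 in OP9. Stat2 read 72.5, 31.6 and 355.0 and Irf9 read 80.5, 44.2 and 240.4, and these partners in the interferon-activated complex had the same order of the lines as Ccl5. Irf1, the other gene lower in OP9-GFP, had another order, at 34.7, 54.2 and 231.0 in OP9-DL, OP9-GFP and OP9. Between OP9-DL and OP9-GFP 2 of the 15 were higher, Stat2 by 2.29-fold and Irf7 by 2.23-fold, and Stat3 was 2.03-fold lower, at 88.4 in OP9-DL against 179.5 in OP9-GFP, beside 2.26% and 3.08% of all genes. Between OP9-DL and OP9, 0 of the 15 were higher and 6 lower, beside 4.42% and 7.29%, with a median log2 difference of -0.60. The interferon receptor genes Ifnar1, Ifnar2, Ifngr1 and Ifngr2 stayed within 2-fold in each comparison.

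Outside the family, the genes whose log2 readings lay nearest to those of Ccl5, the compared chemokine gene with the widest range, were Usp18, Aldh3a1, Trem2, Tor3a and Oas1a. The distances over the 3 arrays ran from 0.67 to 1.01 on the log2 scale. Usp18 read 71.2 in OP9-DL, 45.2 in OP9-GFP and 968.5 in OP9. On the same arrays Aldh3a1 read 119.2, 58.6 and 496.9, and Trem2 read 77.7, 28.6 and 530.1. Tor3a read 110.0, 59.9 and 406.8, and Oas1a, the farthest of the 5, read 138.0, 64.6 and 1299.0. With 3 points per gene this likeness is only a description.

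Promoter sequences, from 250 bases before to 50 after the start, were matched for 21 of the 30 genes, from RefSeq on the build GRCm38.p6. Each was searched on both strands for a kB motif, spelled GGG, any 3 bases, TTCC, and for an interferon response motif, spelled TTTC, any 2 bases, TTTC. The kB motif was in 5 of the 22 chemokine promoters, those of Ccl9, Ccl20, Cxcl1, Cxcl2 and Cxcl10, against 5.56% of all 32851 promoters. The interferon motif was in 2, those of Cxcl10 and Cxcl14, against 3.44% of all promoters. Those of 4 genes are shown, up to the base before the start, because they hold the kB motif and belong to genes with unlike readings. Capitals mark matches of either motif, and adjoining or overlapping matches run together.
Cxcl1, chr5:90891095-90891244, plus strand: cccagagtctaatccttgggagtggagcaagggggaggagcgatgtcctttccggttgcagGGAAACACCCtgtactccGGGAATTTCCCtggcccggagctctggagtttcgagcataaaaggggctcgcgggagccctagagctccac
Cxcl2, chr5:90903749-90903898, plus strand: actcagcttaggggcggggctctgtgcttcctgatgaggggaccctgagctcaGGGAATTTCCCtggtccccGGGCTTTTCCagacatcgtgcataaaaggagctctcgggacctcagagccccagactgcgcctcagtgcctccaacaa
Ccl9, chr11:83578637-83578786, minus strand: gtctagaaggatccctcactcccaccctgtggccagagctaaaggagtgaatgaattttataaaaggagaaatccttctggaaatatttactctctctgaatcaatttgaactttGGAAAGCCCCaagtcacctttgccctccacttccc
Cxcl10, chr5:92348890-92349139, minus strand: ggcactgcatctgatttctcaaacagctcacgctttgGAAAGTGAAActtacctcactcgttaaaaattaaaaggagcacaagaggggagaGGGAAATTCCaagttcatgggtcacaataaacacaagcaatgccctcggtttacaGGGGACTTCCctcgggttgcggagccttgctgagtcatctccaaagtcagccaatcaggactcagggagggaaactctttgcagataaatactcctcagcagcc

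Cxcl1 and Cxcl2, which are neighbours, hold the same word GGGAATTTCC, beginning 71 bases before the start in Cxcl1 and 97 bases before it in Cxcl2. Cxcl1 was above the limit on each array and lower in OP9-DL than in OP9, while Cxcl2 stayed between 1.4 and 2.0. In Cxcl10 a pair of kB matches begin 159 and 104 bases before the start, and the interferon motif begins 213 bases before it. Cxcl14, which also holds the interferon motif, 172 bases before its start, read nearly alike on the arrays. The matches are letters in a window and show neither binding nor a cause of these readings. Ccl2, Ccl4, Ccl5, Ccl7, Ccl11, Ccl24, Cxcl5, Cxcl11 and Cxcl16 were not matched to a promoter.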

How the data were processed

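Per the labels' protocols, column-purified total RNA was turned into amino allyl aRNA, labelled with Cy5 and fragmented, with 1 colour on an array. Deposited were linear values of probe intensity, which the authors scaled to a median of 20 on each of 3 arrays, as the values themselves show. How the arrays were scanned and background-corrected, and why cells are blank, was not given in the sources used here; 6.32% to 6.62% of 23473 probes were blank on an array. No further scaling was applied, and the log2 was taken with no constant. Probes with 1 symbol (16631) were named from the platform annotation, with 3947 symbols updated through a GRCm38.p6 gene table, and the probes of a gene were averaged on the log2 scale. Comparisons were OP9-DL over OP9-GFP, OP9-GFP over OP9 and OP9-DL over OP9, with 1 array per line and no test; the number of arrays limits the precision. The members, gene lists, motifs and rule for naming genes were chosen with earlier results of these data known. Named were every member, Dll1, each receptor and, of each list, at most the 3 largest differences each way past 2-fold. These differences were in OP9-DL over OP9-GFP and OP9-GFP over OP9. Nfkbia, the interferon receptors and the markers were added afterwards. Irf1, Ikbkg, Nfkbie, Adam10, Adam17 and Dpp4 were also named outside this rule. Alternatives were quantile and lowess scaling, other brightness limits, a constant of 5, filled blanks, the brightest probe per gene, and calls at 1.5-fold or 3-fold. The procedure was tested on simulated arrays, with shifts larger than most differences counted here and only in genes well above the limit. Calls close to 2-fold or close to the limit were therefore not checked by it. Python 3.11.15, numpy 2.4.6, pandas 2.3.3, statsmodels 0.14.6 and matplotlib 3.10.9 were used.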

Additional observations from a re-analysis of the deposited data

How the results depend on the processing

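Of 336 recomputed log2 differences of the 16 compared genes, 335 kept their direction where called and their side of 2-fold, and 1 did not: Cxcl1 in OP9-DL over OP9, -1.06 as deposited, was -0.95 under quantile scaling. Many of the 336 could not change: the brightness limits and filled blanks leave the differences of these genes as they are. The brightest probe can alter only Cxcl16. Thus only the scalings and the constant of 5 could move the other genes. None of the called differences changed sign. With a limit at the 50th percentile 12 chemokine genes were compared and Ccl25 dropped out. Of these 12, 1 gene was higher in OP9-DL over OP9-GFP (1.91% of all genes) and 0 stood above both other lines in OP9-DL (0.688%). Without a limit, 25 chemokine genes were compared. Of these 25, 5 were lower in OP9-GFP over OP9 (6.79%) and 2 were below both other lines in OP9-GFP (1.23%). The genes added to these counts, Cxcl10 and Xcl1, are dim. At 3-fold, 0 genes were higher (0.696% of all genes) and 1 lower (1.21%) in OP9-DL over OP9-GFP, 0 were higher in OP9-DL over OP9 (1.46%), 0 stood above both in OP9-DL (0.388%), 1 stood above (0.256%) and 0 below both (0.185%) in OP9-GFP, and 0 stood below both in OP9 (0.564%). At 1.5-fold, 1 stood below both in OP9-DL (4.42%). The other counts stayed within 1.5 times their value, among them the genes lower in OP9-DL over OP9. These were 6 of 25 without a limit (6.88% of all genes) and 6 of 20 with filled blanks (7.13%). Scaling moved the median of all genes by at most 0.04. No paired analysis was possible because each line has 1 array. Readings below 6.13 give no firm fold, and with 1 array per line a difference between lines and between cultures or arrays cannot be told apart.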

Other observations

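Heparan sulphate chains carry chemokines on the stromal surface, and of 18 compared genes that make, carry or trim them 1 was higher and 0 were lower in OP9-DL than in OP9-GFP, beside 2.26% and 3.08% of all genes. Sulf2, which removes sulphate from the chains outside the cell, read 16.9 in OP9-DL, 6.2 in OP9-GFP and 11.5 in OP9. Between OP9-GFP and OP9, Sulf1, its relative, was higher, at 45.6 in OP9-GFP against 14.2 in OP9, and 3 genes were lower, beside 5.05% and 6.81% of all genes. Sdc1, the core protein syndecan-1, read 106.3 in OP9-GFP and 352.6 in OP9. Ndst2, which sulphates the chains, read 37.6 in OP9-GFP and 80.8 in OP9. Sdc3, another syndecan core protein, read 4.6 in OP9-GFP and 9.5 in OP9. The OP9-GFP reading of Sdc3 lay below the brightness limit of 6.13 and that of Sulf2 just above it, so neither fold is firm. The median log2 difference of the list was 0.01 in OP9-DL over OP9-GFP and -0.16 in OP9-GFP over OP9, against -0.03 and 0.02 over all genes.

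Of 6 compared proteases that are known to cut chemokines or shed Cx3cl1 and Cxcl16, none passed 2-fold between OP9-DL and OP9-GFP. Of all genes 5.33% passed it there in either direction, and 6 genes are too few to set against that share. On these single arrays no test was possible. Mmp2, a gelatinase, read 268.5 in OP9-GFP and 607.3 in OP9 and was the 1 gene of 6 past 2-fold between them, beside 11.9% of all genes. Adam10 read 205.9, 239.5 and 336.8 and Adam17 read 69.9, 92.0 and 91.6 in OP9-DL, OP9-GFP and OP9. Dpp4, which trims Cxcl12, was below the brightness limit at 3.1, 2.5 and 3.8.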
